A study of Caenorhabditis elegans with 2 samples.

Results

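Stand-alone genes of *Caenorhabditis elegans* carried 729 promoter peaks of the tagged protein ATTF-5, out of 3331 reproducible peaks in the genome (21.9%). A peak was counted here when its summit fell in a promoter window, which reaches from 1000 bp before to 200 bp past an annotated 5′ end, of protein-coding genes of a single strand, and when the nearest of these genes had no other same-strand protein-coding gene within 500 bp of either of its ends. The rule used gene positions only, not the strength of binding. The 729 peaks lay at 692 genes. They made up 729 of the 1891 promoter peaks, and the other promoter peaks were 599 in windows of genes of both strands and 563 at genes with a close same-strand neighbour. A further 1440 peaks lay outside promoter windows.

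The study mapped ATTF-5 by sequencing of immunoprecipitated chromatin (ChIP-seq) in 1 group of whole, mixed-sex young adults grown for 66 hours after synchronisation by starvation at the first larval stage. Both biological replicates, numbered 1 and 3, came from strain OP724. Every animal carried the mutation unc-119(tm4063) and the transgene insertion wgIs724. The insertion holds a rescuing unc-119(+) gene and a copy of attf-5 fused at its C-terminal end to the tags TY1, EGFP and 3xFLAG, and an anti-GFP antibody was used for the precipitation. Binding is therefore that of a transgene product, averaged over all tissues, and a site bound in few cells cannot be told apart from a weakly bound site. No untagged or wild-type immunoprecipitate was analysed here. Values come from peak lists made by the authors, in which each region has a summit and a signal, an enrichment on the authors' own scale. The depth of sequencing is not given in the sources used here. With 1 group there is no contrast between conditions, and with 2 replicates a two-sided sign-flip test cannot give a p below 0.5, so values are given per replicate without a test.

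ATTF-5 is named for the AT-hook, a short peptide motif known to reach into the minor groove of DNA and to prefer runs of adenine and thymine. In the *C. elegans* genome many genes lie close together on one strand in operons, where a single promoter serves several genes, and many others lie back to back and share the sequence between their 5′ ends. A stand-alone gene has no close neighbour on its own strand, and the peaks counted here lie outside the promoter windows of opposite-strand genes. In this set each of the 729 summits lay in the window of exactly 1 protein-coding gene. A summit can still lie inside the body of another gene, so the gene named is that of the promoter window and may not be the only one concerned.

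The sequences at the summits of 8 of the 10 strongest stand-alone peaks are shown because they carry the strongest signals and because few of them hold the adenine and thymine runs that the name of the protein brings to mind. Each spans 101 bases, centred on the summit, 5′ to 3′ on the strand of the gene, from the RefSeq WBcel235 assembly, which has the sequence of the ce11 build of the files. Capitals mark runs of 6 or more bases that are all adenine or thymine.
rpl-3, chrIII:3867531-3867631, plus strand: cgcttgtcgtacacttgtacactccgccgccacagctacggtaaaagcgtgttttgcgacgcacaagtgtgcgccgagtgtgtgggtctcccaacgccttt
cdc-48.1, chrII:10563513-10563613, minus strand: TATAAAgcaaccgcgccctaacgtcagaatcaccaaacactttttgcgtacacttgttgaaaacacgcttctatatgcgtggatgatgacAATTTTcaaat
rpl-35, chrIII:7854646-7854746, plus strand: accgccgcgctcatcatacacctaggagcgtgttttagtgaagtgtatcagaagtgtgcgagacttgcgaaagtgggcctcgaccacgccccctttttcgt
ntl-11, chrIV:15471566-15471666, minus strand: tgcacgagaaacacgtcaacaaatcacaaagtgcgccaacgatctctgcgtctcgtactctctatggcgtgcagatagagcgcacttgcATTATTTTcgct
cox-5A, chrIII:12905153-12905253, plus strand: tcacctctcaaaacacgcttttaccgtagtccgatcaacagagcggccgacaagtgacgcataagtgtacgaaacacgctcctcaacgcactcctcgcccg
cbp-1, chrIII:9765614-9765714, plus strand: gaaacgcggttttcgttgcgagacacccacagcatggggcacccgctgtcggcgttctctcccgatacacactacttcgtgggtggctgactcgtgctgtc
mog-4, chrII:14561756-14561856, minus strand: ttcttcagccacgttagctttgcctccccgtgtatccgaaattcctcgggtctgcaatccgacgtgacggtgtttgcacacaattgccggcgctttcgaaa
Y59A8B.24, chrV:17951351-17951451, plus strand: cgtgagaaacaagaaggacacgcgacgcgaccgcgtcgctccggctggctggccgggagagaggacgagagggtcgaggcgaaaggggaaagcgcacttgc

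Only the sequences of cdc-48.1 and ntl-11 among these 8 held such a run, with 12 and 8 bases in capitals. The AT content of the 8 windows ran from 33.7% at Y59A8B.24 to 60.4% at cdc-48.1. Counted on either strand, the 6-mer AAACAC was in 6 of the 8. The 6-mers AACACG (5 of the 8) and ACACGC (5 of the 8) overlap with it and with each other, and CAAGTG was also in 5 of the 8. They were picked out after the sequences had been read.

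The extremes of base composition among the members are shown next, to set the range. The first 3 had the lowest AT content at the summit, 29.7% each, and the last 2 were among the 3 highest, with 80.2% at mrpl-36, a mitochondrial ribosomal protein gene, and 81.2% at har-1. Capitals again mark runs of 6 or more adenine or thymine bases.
Y39A1A.9, chrIII:10634159-10634259, minus strand: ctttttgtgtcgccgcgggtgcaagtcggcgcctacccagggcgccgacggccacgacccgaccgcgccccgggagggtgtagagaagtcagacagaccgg
Y82E9BR.3, chrIII:1418849-1418949, plus strand: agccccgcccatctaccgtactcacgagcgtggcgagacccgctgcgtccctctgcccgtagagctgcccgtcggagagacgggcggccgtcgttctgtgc
myrf-1, chrII:10502818-10502918, minus strand: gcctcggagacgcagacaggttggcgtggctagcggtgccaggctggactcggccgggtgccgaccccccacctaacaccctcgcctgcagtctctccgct
mrpl-36, chrIII:9848139-9848239, minus strand: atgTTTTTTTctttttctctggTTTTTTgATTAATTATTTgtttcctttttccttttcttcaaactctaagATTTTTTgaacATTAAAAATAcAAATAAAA
har-1, chrIII:4151090-4151190, plus strand: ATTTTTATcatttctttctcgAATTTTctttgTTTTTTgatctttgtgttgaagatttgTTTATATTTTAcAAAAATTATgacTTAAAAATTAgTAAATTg

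The peaks with the lowest AT content had signals of 225.0 at Y39A1A.9, 137.1 at Y82E9BR.3 and 286.5 at myrf-1, a gene for a membrane-bound transcription factor. The windows printed for them overlapped noncoding RNA genes of the Ensembl annotation, by 87 of the 101 bases at Y39A1A.9 and by all 101 at the other two. The AT-rich summits had signals of 111.4 at mrpl-36 and 165.1 at har-1, the latter in an intron of another gene. Another kind of window was chosen for display after motif shares had been seen. It is shown because repeats of GA, which read TC on the other strand, were, of the short sequences searched, the one whose share differed most in percentage points between the stand-alone peaks and each other promoter class. These are the 3 strongest intergenic members with such a repeat within 50 bp of the summit, apart from the 8 above, and capitals mark GA or TC repeated at least 3 times.
eef-1A.2, chrX:7823223-7823323, plus strand: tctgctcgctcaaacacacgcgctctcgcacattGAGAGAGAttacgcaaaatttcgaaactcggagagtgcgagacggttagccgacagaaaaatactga
Y54G11A.2, chrII:14251520-14251620, plus strand: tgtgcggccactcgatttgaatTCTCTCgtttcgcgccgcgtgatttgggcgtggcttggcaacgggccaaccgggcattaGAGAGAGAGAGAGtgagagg
ain-1, chrX:16612467-16612567, plus strand: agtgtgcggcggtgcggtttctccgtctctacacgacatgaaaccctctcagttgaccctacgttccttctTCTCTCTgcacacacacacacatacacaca

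The strongest stand-alone peaks lay at genes of varied function, and 11 of the 20 strongest belonged to one of the gene lists used here. The peak of rpl-3 (WBGene00004414), a large ribosomal subunit protein gene, had a pooled signal of 1716, with 904.7 in replicate 1 and 813.7 in replicate 3. Its region spanned chromosome III 3867306 to 3867804, and the summit was intergenic, at −273 bp from the 5′ end, where negative positions lie upstream. That of cdc-48.1 (WBGene00007352), which encodes the AAA ATPase p97 that extracts ubiquitinated proteins, had 1565, with 819.9 and 744.1 in replicates 1 and 3, at chromosome II 10563340 to 10563794. The peak of rpl-35 (WBGene00004449), also a large subunit gene, had 1362, with 688.2 and 682.3, at chromosome III 7854474 to 7854899. These 3 stood apart from the rest in both replicates, since the next had 515.5 in replicate 1 and 466.0 in replicate 3.

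That next peak, at ints-4, which encodes a subunit of the Integrator complex that processes small nuclear RNAs, had a pooled signal of 977.8 and its summit in the 5′ UTR, 36 bp downstream of the 5′ end. The cytochrome c oxidase genes cox-5B and cox-5A had 869.7 and 766.1. The peak of ntl-11, a gene of the CCR4-NOT deadenylase complex, had 804.6. The summit of cbp-1, which encodes a CBP/p300 histone acetyltransferase, had 739.7 and lay at −845 bp, the farthest of the 20 strongest. The splicing helicase gene mog-4 had 696.4, the SWI/SNF chromatin remodelling gene swsn-3 had 616.3 and the epsin gene epn-1, which acts in endocytosis, had 613.0. The summit named for swsn-3 lay in an intron of another gene, cox-6B. Genes of the cell division cycle among the 20 were cdk-7 with 596.9 and pcn-1, the gene of the replication clamp PCNA, with 538.1. The elongation factor gene eef-1A.2 had 554.7, rpl-41.2 had 533.9 and vig-1, a gene of the RNA-induced silencing complex, had 626.9. The remaining 4 were genes with sequence names only, namely Y59A8B.24 (655.9), Y39E4B.6 (606.4), Y18D10A.4 (554.8) and C09E7.7 (528.0). The replicates lay close together at all 20, with log2 ratios of replicate 1 to replicate 3 from −0.17 at C09E7.7 to 0.39 at pcn-1.

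**Figure D1:**
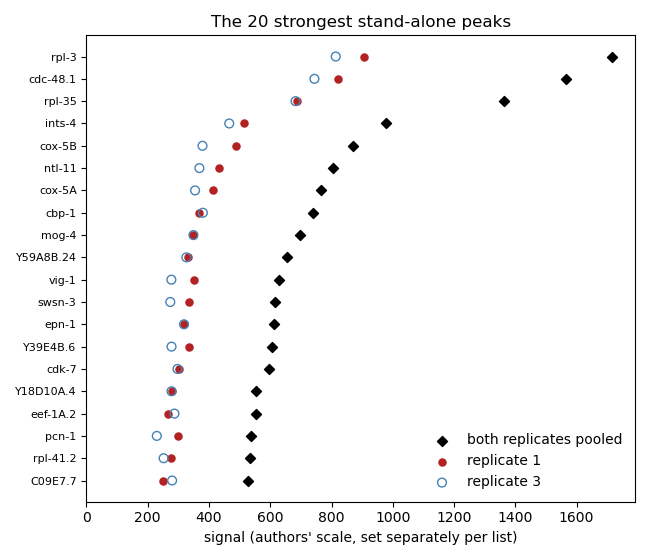
Signal of the 20 strongest stand-alone peaks (x axis, on the authors' scale, which is set separately in each list) by nearest gene (y axis). Diamonds are the pooled signal, filled circles replicate 1 and open circles replicate 3. rpl-3, cdc-48.1 and rpl-35 lie at 1362 or above in the pooled list, and the other 17 between 528.0 and 977.8.

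Stand-alone peaks as a set were somewhat weaker than the other promoter peaks, mainly than those in windows of both strands. Their pooled signal had a median of 144.1, with quartiles of 112.0 and 221.1 and extremes of 89.6 and 1716. The median was 148.5 at closely spaced genes, 185.4 in windows of both strands and 130.0 outside promoters. Log2 medians of pooled signal were 7.17 for stand-alone peaks, 7.21 at closely spaced genes and 7.53 in windows of both strands. In replicate 1 they were 6.29, 6.30 and 6.59, and in replicate 3 they were 6.14, 6.23 and 6.48. On the log2 scale the stand-alone median was below that of all other promoter peaks by a difference of −0.21 for pooled signal, −0.15 for replicate 1 signal and −0.23 for replicate 3 signal. The direction was the same in both replicates. The size depended on the peaks compared: without replicate 3, over the strongest 3331 regions of replicate 1, the difference was −0.12, and it was −0.11 among peaks with signal at or above the median of all peaks and −0.10 when neighbours of either strand were kept 500 bp away. Of the 100 strongest peaks in the genome, 20 were stand-alone peaks, close to their 21.9% share of all peaks, whereas 42 lay in windows of both strands.

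A smaller share of stand-alone genes than of genes in general was bound. Of 19973 protein-coding genes, 2461 (12.3%) had a promoter peak. There were 8914 genes with no same-strand neighbour within 500 bp and with a promoter window free of the windows of opposite-strand genes, and 586 of these (6.57%, 95% Wilson interval 6.08 to 7.11%) had one. Spaced genes whose window overlapped that of an opposite-strand gene were bound at 802 of 3980 (20.2%), and 106 of them had a stand-alone peak in the part of the window that was their own. Genes with a close neighbour were bound at 499 of 5403 (9.24%) when the window was free and at 574 of 1676 (34.2%) when it overlapped. A peak in overlapping windows is counted for each of the genes, which raises the shares of these groups by construction. The intervals cover counting error only. Any region of the pooled list, which by its label includes background, lay in the windows of 2646 of the 8914 genes (29.7%), against 7709 of all 19973 genes (38.6%), so the lower share of stand-alone genes was also present there.

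The X chromosome was the one on which stand-alone peaks dominated. There 152 of 220 promoter peaks (69.1%) were stand-alone peaks, against 33.6 to 35.9% on the 5 autosomes. The genes themselves were arranged differently on X, where 66.6% of protein-coding genes were stand-alone by the definition above, compared with 36.9 to 44.7% on the autosomes. Among stand-alone genes the share bound on X was 7.42% (135 of 1820), inside the autosomal range of 3.93% on V to 10.3% on III. Median signals on X (146.4) also lay inside the autosomal range, from 127.6 on V to 166.4 on II. The transgene's own genes gave no peak: neither attf-5, on X, nor unc-119, on III, had a summit in its promoter or within 3 kb of the gene.

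Housekeeping genes made up the lists of stand-alone genes with the largest bound shares. Ribosomal protein genes had a peak at 10 of 13 stand-alone genes, against the 6.57% of all stand-alone genes. With rpl-41.2, whose window overlapped that of an opposite-strand gene, 11 ribosomal protein genes carried a stand-alone peak, with pooled signals from 97.2 at rpl-38 to 1716 at rpl-3 and a median of 248.7. Of the respiratory chain and ATP synthase list 4 of 5 were bound, led by cox-5A and then asb-2, which encodes a subunit of ATP synthase (334.4, with 158.8 in replicate 1 and 171.0 in replicate 3). Vacuolar ATPase genes, which encode the pump that acidifies lysosomes, were bound at 5 of 8, led by vha-12 (263.3, with 127.5 and 135.9). Mitochondrial ribosomal protein genes were bound at 4 of 7, led by mrpl-15 (431.9), and proteasome genes at 2 of 3, with rpt-1 (177.0) and pas-5 (137.0). The proteasome share rests on these 2 genes and is not a result about that family. High shares were not limited to stand-alone genes. Of all genes, stand-alone or not, 66 of 81 in the ribosomal list and 22 of 44 in the respiratory list were bound. It was 10 of 20 for vacuolar ATPase, 23 of 70 for mitochondrial ribosomal and 16 of 33 for proteasome genes, beside 12.3% of all protein-coding genes.

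Of the genes for the cell cycle and DNA replication 9 of 18 had a peak, pcn-1 among them. A further 3 genes of that list, cdc-48.1 and cdk-7 among them, had a stand-alone peak but a window that overlapped that of an opposite-strand gene, so they were not among the 18. The same holds for cox-5B and for lgg-2, vps-60, hsp-3 and puf-9 below, which are named as members of their lists and were not in the counts. Autophagy genes were bound at 4 of 11, with 6 genes carrying a stand-alone peak in all. The strongest of these were epg-7 (390.2, with 209.1 in replicate 1 and 183.4 in replicate 3) and both LC3-like genes, lgg-2 (280.3) and lgg-1 (245.6), whose products mark the autophagosome membrane. Chromatin regulators were bound at 8 of 29, led by cbp-1, swsn-3 and the histone demethylase gene rbr-2 (306.0). Membrane traffic genes were bound at 4 of 18, and vps-60 (478.4) had the strongest member peak of that list. Chaperones were bound at 3 of 16, and their strongest member peak was at hsp-3, the gene of the endoplasmic reticulum chaperone BiP (440.5, with 221.4 and 221.8). Translation factors were bound at 2 of 7, a share that rests on 2 genes and is not a result about that family. Ubiquitin conjugation and removal genes were bound at 3 of 18, led by otub-2 (403.7). Cytoskeleton and motor genes were bound at 5 of 35, led by the α-spectrin gene spc-1 (378.8) and the β-tubulin gene tbb-2 (280.3). Of RNA binding and small RNA genes 3 of 25 were bound, and the strongest member peak was at the Pumilio-family gene puf-9 (505.8). The ubiquitin, cytoskeleton and RNA binding lists are too small to set their shares apart from that of all stand-alone genes. No aminoacyl-tRNA synthetase gene was bound among the 4 that were stand-alone, though 9 of all 31 were bound.

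**Figure D2:**
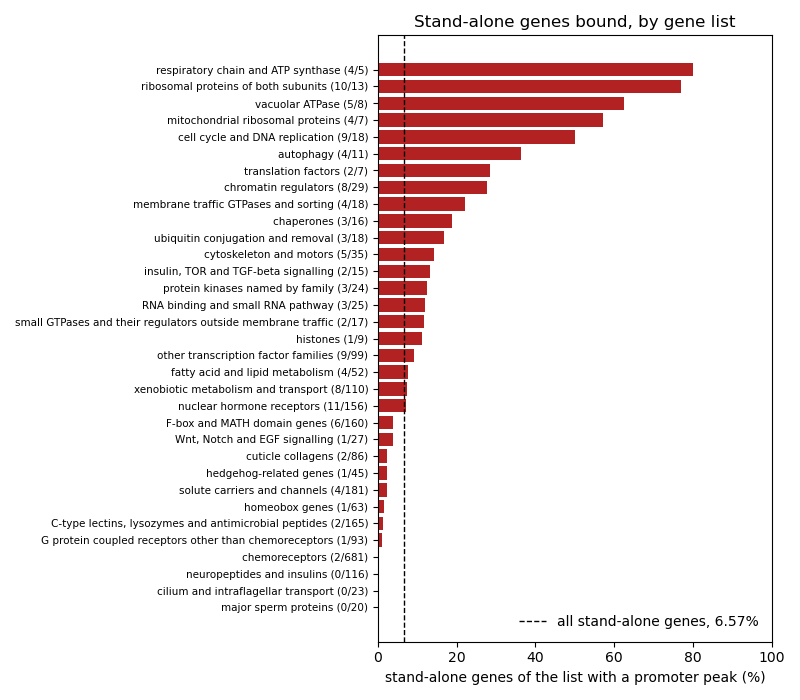
Share of stand-alone genes with a promoter peak (x axis, %) for each gene list with at least 5 stand-alone genes (y axis, with bound and total genes in brackets). The dashed line marks the 6.57% of all stand-alone genes; respiratory, ribosomal, vacuolar ATPase, mitochondrial ribosomal and cell cycle lists lie at 50% or above, and chemoreceptors at 2 of 681.

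Families of regulators mostly lay nearer to the share of all stand-alone genes, and homeobox genes are given further below. Nuclear hormone receptors, a large family of ligand-regulated transcription factors, were bound at 11 of 156 (7.05%), led by nhr-56 (331.2), nhr-48 (255.3) and nhr-256 (175.6). Other transcription factor families were bound at 9 of 99 (9.09%), led by hlh-11 (337.6, with 192.1 in replicate 1 and 155.5 in replicate 3), ets-6 (223.6) and zip-11 (178.3). The summit named for ets-6 lay in an intron of another gene, ints-9. Kinases named by family were bound at 3 of 24, with kin-29 (266.3), akt-2 (188.0) and kin-35 (99.7). Small GTPases outside membrane traffic were bound at 2 of 17, insulin, TOR and TGF-beta signalling genes at 2 of 15, Wnt, Notch and EGF signalling genes at 1 of 27, histones at 1 of 9 and splicing factors at 1 of 3. Fatty acid and lipid metabolism (4 of 52) and xenobiotic metabolism (8 of 110) gave 7.69% and 7.27%. Shares this close to 6.57%, or resting on 3 genes or fewer, are not a result about those families.

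Genes of specialised tissues and secreted or membrane receptor families were seldom bound. Chemoreceptors, the largest list, were bound at 2 of 681 stand-alone genes (0.294%), neuropeptides and insulins at 0 of 116, other G protein coupled receptors at 1 of 93, homeobox genes at 1 of 63 (ceh-2, 112.0), solute carriers and channels at 4 of 181, cuticle collagens at 2 of 86, lectins, lysozymes and antimicrobial peptides at 2 of 165, and F-box and MATH domain genes at 6 of 160. Hedgehog-related genes were bound at 1 of 45, cilium genes at 0 of 23 and major sperm protein genes at 0 of 20. The homeobox, cuticle collagen and F-box and MATH domain lists are too small to set their shares apart from the 6.57% of all stand-alone genes. The same holds for the hedgehog-related, cilium and major sperm protein lists. Several of the few peaks in the families of this paragraph lay beside a gene for a structural RNA. The peak of the chemoreceptor gene sre-23 (326.0, with 190.4 in replicate 1 and 142.1 in replicate 3) lay within 200 bp of the snoRNA gene ZK265.10, and those of srh-269, clec-126, spp-26, aqp-9 and grl-26 lay within 200 bp of tRNA genes. When the lists were divided, after their shares had been seen, into 23 above and 13 at or below the share of all stand-alone genes, a tRNA, snoRNA, snRNA or miRNA gene lay within 200 bp of 5 of 133 peaks (3.76%) in the first group and of 10 of 27 (37.0%) in the second. Among all 729 members it was 50 (6.86%), with tRNA genes beside 33, snoRNA genes beside 10, snRNA genes beside 6 and a miRNA gene beside 1. The strongest of these 50 were at F59C6.18 (441.9, with 222.8 in replicate 1 and 215.3 in replicate 3), beside a snoRNA gene, and at H41C03.3 (423.0, with 236.9 and 186.0), beside sls-2.1, a gene of the SL2 spliced leader RNA. The part of the structural RNA genes in these peaks was not tested.

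Animals were taken whole, and markers of single tissues were too few to set their share apart from that of all stand-alone genes: 1 of 30 stand-alone marker genes (3.33%) was bound, beside the 6.57%. Of 8 marker lists, for neurons, body-wall muscle, pharynx, intestine, epidermis, germline, sperm and coelomocytes, the pharynx list alone gave a member. This was pha-4, which encodes the FoxA factor that specifies the pharynx, with a low signal of 100.2 (56.7 in replicate 1 and 39.2 in replicate 3). Pharynx markers were thus bound at 1 of 4 stand-alone genes. Neuron markers were bound at 0 of 8, muscle and epidermis markers each at 0 of 5, intestine markers at 0 of 3, germline and coelomocyte markers each at 0 of 2 and sperm markers at 0 of 1. Lists covered a minority of the members: 152 of the 692 genes belonged to any list, 540 to none, and 226 had a sequence name only.

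Summits of stand-alone genes lay farther upstream and over a wider range than those of the other promoter peaks. The median position was −303 bp from the nearest 5′ end (quartiles −552 and −156 bp). It was −181 bp at closely spaced genes (quartiles −323 and −102.5 bp), and in windows of both strands the quartiles were −232.5 and −55 bp. Of the stand-alone summits 213 (29.2%) lay at or beyond 500 bp upstream, compared with 13.1% and 3.67% in the other classes. Another 278 (38.1%) lay from 500 to 200 bp upstream, 196 (26.9%) within 200 bp upstream and 42 (5.76%) downstream. In windows of both strands the position is taken from the nearest of several 5′ ends, which shortens it by construction. For closely spaced genes the rule sets no separate upstream limit within the window. A summit in the windows of several of them is also placed from the nearest 5′ end, which shortens its position too. How far the rule accounts for these differences was not tested. Annotated 5′ ends of many worm genes are those of trans-spliced transcripts, and the true start can lie upstream.

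**Figure D3:**
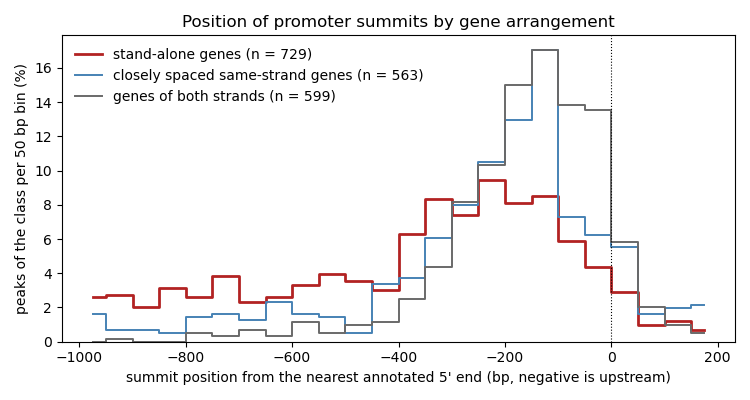
Promoter summits by distance from the closest annotated 5′ end (x axis, bp, negative upstream) as the share of peaks of each class per 50 bp bin (y axis, %). The 729 stand-alone summits (thick line) are spread out to 1000 bp upstream, while those of the other classes gather within about 300 bp.

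Most stand-alone summits lay outside annotated protein-coding genes. Of the 729, 629 (86.3%) were intergenic in this sense and 46 (6.31%) lay in an intron of another gene. The 5′ UTR of the peak's own gene held 32, with a median signal of 114.6, and coding exons of the own gene held 6. Signal did not follow the size of the gene or of the space before it: across the 729 peaks Spearman's rho of pooled signal was 0.0087 with gene length, −0.0058 with the distance to the next gene upstream and −0.057 with the position of the summit. These peaks share the same libraries, and the values are descriptions.

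A second summit was found at 37 of the 692 genes, and no gene had 3. At 31 of the 37 the summits lay 199 to 224 bp apart, and at the other 6 they lay at least 604 bp apart. With so even a spacing, the 31 pairs are not shown to be separate binding sites. The part of region calling in this spacing was not tested. The strongest pairs were at mog-4 (696.4 and 328.0), the ubiquitin ligase gene eel-1 (466.3 and 431.7) and the 14-3-3 gene ftt-2 (465.1 and 278.3). Of the members 20 shared their called interval with another peak.

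Peaks just inside and just outside the limits of the rule ran from near the lowest member signal to well above the median. The members nearest the upstream limit were dhs-8 at −1000 bp (340.8), sgn-1 at −999 bp (111.2) and clp-4 at −995 bp (167.8), and just beyond it lay fbxb-58 at −1004 bp (146.3), C04A11.2 at −1010 bp (330.1) and ppm-2 at −1010 bp (565.5). Downstream, pck-2 at 183 bp (110.0), cka-1 at 181 bp (90.8) and ipla-3 at 171 bp (209.4) were inside, and ssup-72 at 213 bp (159.7), egl-17 at 230 bp (220.9) and erp-44.1 at 233 bp (238.7) were outside. By spacing, W03H9.2 (neighbour 501 bp away, 153.1), rpt-1 (504 bp, 177.0) and mcd-1 (510 bp, 199.9) were inside, and F59B1.8 (497 bp, 99.3), smcl-1 (497 bp, 126.1) and ZK622.1 (494 bp, 96.0) were outside.

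The replicates found nearly the same stand-alone peaks. Replicate 1 had a summit within 100 bp of 712 members and replicate 3 of 715. Both did for 699 (95.9%, 95% Wilson interval 94.2 to 97.1%), 29 had one in a single replicate and 1 in neither. The authors kept peaks for their reproducibility between these replicates, so a high share was built in. Shares in the other classes were 96.3% at closely spaced genes, 97.3% in windows of both strands and 94.3% outside promoters, so the stand-alone peaks did not stand apart. With a limit of 50 bp the share of members fell to 75.9%.

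Strong peaks agreed more closely between replicates than weak ones. Median signals of the members were 78.3 in replicate 1 and 70.4 in replicate 3, with Spearman's rho of 0.719 across the 699 peaks. The median log2 ratio of replicate 1 to replicate 3 was 0.097 (SD 0.52 over peaks), and 424 of the 699 were higher in replicate 1. The SD was 0.27 among the 182 strongest members and 0.67 among the 182 weakest. More than 2-fold from the median ratio lay 46 peaks (6.58%). The largest excess of replicate 1 was at H41C03.3 (149.8 against 24.97), spc-1 (71.0 against 12.6) and Y32B12B.2 (83.9 against 19.3), and the largest excess of replicate 3 at ZK112.4 (19.3 against 75.7), col-8 (21.8 against 78.7) and pxd-1 (15.5 against 55.8). The H41C03.3 and spc-1 peaks were the weaker of a pair at their genes, and their partners had 423.0 and 378.8 in the pooled list.

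**Figure D4:**
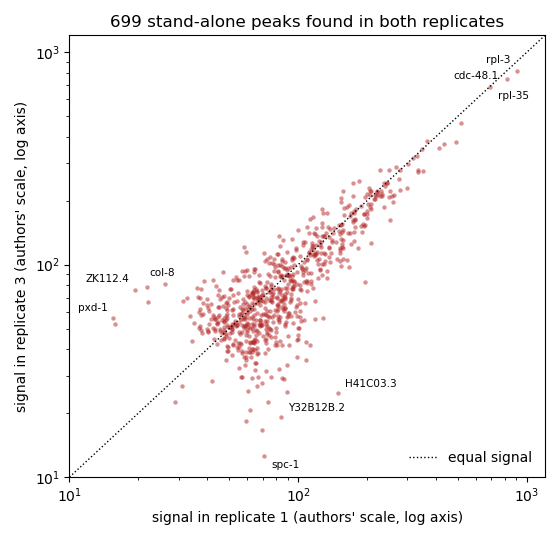
Signal in replicate 3 (y axis) against replicate 1 (x axis), both on the authors' scale with log axes, for the 699 stand-alone peaks with a summit in both; the dotted line marks equal signal. The strongest peaks lie near the line, and the 3 peaks with the highest and the lowest ratio are named with the 3 strongest.

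Summits of stand-alone peaks were poorer in adenine and thymine than the sequence around them. Within 50 bp of the summit the mean AT content was 53.2% ± 8.41 (SD over 729 peaks), and in the flanks from 150 to 200 bp it was 63.8%, a difference of −10.6 percentage points ± 11.1 (SD over peaks). With the summits of replicate 1 the difference was −10.2 and with those of replicate 3 it was −10.4. The summit was poorer than its flanks at 606 members and richer at 123. Closely spaced genes had a difference of −11.03, windows of both strands −12.4 and peaks outside promoters −8.63, so the AT-poor summit was shared by the 4 classes. Stronger peaks had the lower AT content, with 49.4% in the 182 strongest and 55.5% in the 182 weakest, and Spearman's rho of signal with AT content was −0.30 at the summit and −0.087 in the flanks.

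The sequence was also uneven between the strands. Read along the strand of the gene, the 100 bp that begin 50 bp downstream of the summit held 35.8% thymine and 25.2% adenine, and thymine outnumbered adenine there at 573 of the 729 peaks (78.6%). The corresponding share upstream was 60.6%, and around the summit 63.9%. Peaks of closely spaced genes gave 79.6% downstream. Unbound stand-alone genes, read at the median position of the members, gave 61.4% downstream, but they have no summit to align, so the comparison sets an aligned group beside an unaligned one.

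**Figure D5:**
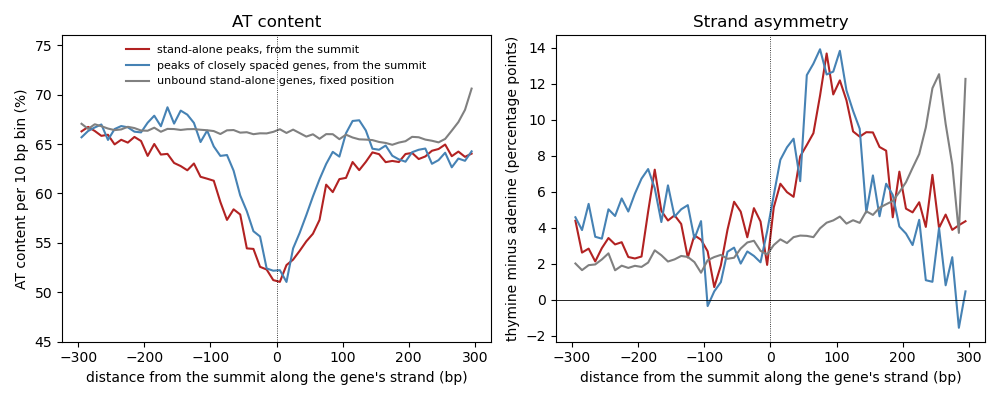
AT content (left, %) and the excess of thymine over adenine (right, percentage points) in 10 bp bins by distance from the summit along the strand of the gene (x axis, bp), for stand-alone peaks, peaks of closely spaced genes and unbound stand-alone promoters placed at −303 bp. AT content dips at the summit in both peak classes, and the thymine excess is highest about 100 bp downstream.

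Short sequences named for AT-rich DNA were less common around stand-alone summits than in unbound promoters. In the 201 bp centred on the summit, AATT was present on either strand in 72.0% of the 729 members, against 92.8% of 8328 unbound stand-alone promoters at −303 bp, 93.1% of all protein-coding promoters there and 93.8% of windows 300 bp upstream of the members' own summits. AAATTT was in 20.6% against 46.7%, 44.8% and 44.4%, and an unbroken run of at least 12 adenine or thymine bases in 21.9% against 47.6%, 47.8% and 48.15%. Every match of the longer palindrome holds one of the shorter. The run AAAAAA, which reads TTTTTT on the other strand, was in 49.9% against 70.5%, 67.8% and 68.4%. These windows had a mean AT content of 56.1% in members and 66.1% in unbound promoters, and how far this accounts for the shares was not tested.

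GA repeats were more common at stand-alone summits, as in the sequences of eef-1A.2, Y54G11A.2 and ain-1. GAGAGA or TCTCTC lay in the 201 bp window of 343 members (47.1%), against 11.1% of unbound stand-alone promoters, 11.9% of all promoters and 12.6% of the windows 300 bp upstream. The other promoter peaks had it less, at 33.4% for closely spaced genes and 25.4% for windows of both strands, whereas peaks outside promoters had 46.2%. Along the gene's strand TCTCTC alone was found at 204 members, GAGAGA alone at 103 and both at 36. TCTCTC alone was also the more frequent in unbound stand-alone promoters, at 471 against 223 on autosomes and 141 against 63 on X. At closely spaced genes it was 107 against 68. The share of members with either was 52.0% on X and 45.8% on autosomes, beside 12.6% and 10.8% of unbound stand-alone promoters. It was 53.1% for member summits more than 500 bp upstream and 44.6% for nearer ones. Members with and without it hardly differed in median signal (143.1 and 144.8) or in the share found in both replicates (95.6% and 96.1%).

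Other sequences were rarer. CTGCGTCT or its reverse complement AGACGCAG, which the ntl-11 summit holds, was in 17.7% of members, 1.55% of unbound stand-alone promoters, 1.95% of all promoters and 2.19% of the shifted windows, with 13.9% and 9.68% at closely spaced genes and in windows of both strands. Its matches were denser within 50 bp of the summit (1.25 per kb) than from 50 to 100 bp (0.741 per kb). CCGCCC was in 10.2% of members against 4.07% of unbound stand-alone promoters, and the palindrome CACGTG in 7.68% against 2.91%. Among the other peaks CCGCCC was in 7.99% at closely spaced genes, 11.5% in windows of both strands and 10.9% outside promoters. CACGTG was in 5.68%, 3.67% and 10.6% of these classes. TATAAA, the core of the TATA box, was in 14.1% of members against 24.6% of unbound stand-alone promoters. The others searched were TTTCAG, the usual 3′ end of worm introns, with 18.9% against 30.2%, GCGCGAAA with 3.02% against 0.78%, and ATATAT with 5.9% against 10.7%. Of the 6-mers shared by the strongest printed sequences, ACACGC or GCGTGT was in 12.5% of the other 721 members against 3.27% of unbound stand-alone promoters, with 17.8% in the strongest members (174 of the 182 strongest, without the 8 printed) and 8.24% in the 182 weakest. For AAACAC the figures were 22.7% against 17.1%, and for CAAGTG 10.3% against 7.35%. At closely spaced genes, in windows of both strands and outside promoters, ACACGC was in 10.5%, 14.0% and 12.4%. AAACAC was there in 24.3%, 25.7% and 17.2%, and CAAGTG in 12.6%, 14.0% and 10.4%. Members and unbound promoters also differed in AT content, and how far this accounts for the shares was not tested. A match is a description of the sequence and does not show which protein was bound there.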

How the data were processed

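ATTF-5 ChIP-seq peak lists from 2 biological replicates of whole young adults were analysed. Per the text deposited beside the sample files, the authors called regions for each replicate and for both pooled, against a control, and kept 3331 by reproducibility. The deposited signal is an enrichment on the authors' own scale and was used as given. The deposited −log10 q and the summit offset within each region were read as given, and −log10 q entered no result. Precision from depth is unknown, since neither depth nor peak caller is given in the sources used here. Coordinates are in ce11, and chromosome lengths of RefSeq WBcel235 fit them.

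Protein-coding genes came from Ensembl release 115. Classes, windows and the spacing limit follow the rule in the report. Replicate summits were matched within 100 bp. Unbound promoters were read at −303 bp, the members' median. Shares carry Wilson intervals at 95%. Python 3.11.15, numpy 2.4.6, pandas 2.3.3 and scipy 1.17.1 were used, and the classification was tested on simulated data with known classes. No test was made across regions or genes.

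The members, 36 symbol-based gene lists and 8 marker lists were chosen with earlier results of these data known. Symbols of other families were removed from 4 lists after matches had been seen, and the motifs, the windows shifted by 300 bp, the shared 6-mers and the division of lists were chosen after the files had been seen. Named genes were those of the 20 strongest members, the up to 3 strongest of each list, the extremes of replicate ratio and of AT content, members at the limits of the rule, attf-5 and unc-119. Genes with paired summits, genes near structural RNA genes and those whose GA repeats are printed were named after their values had been seen. Alternatives changed the peak set, window, spacing, replicate, matching distance and AT window.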

Additional observations from a re-analysis of the deposited data

How the results depend on the processing

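Of 51 values recomputed under other settings, 26 stayed within a set limit, 25 moved beyond it and none changed direction. The limit was 1.5 times for counts and the Wilson interval for the share found in both replicates, and these could not change direction by the rule. For the log2 ratio of the replicates it was the SD over peaks, 0.52. This is wide beside the median of 0.097, so that ratio could hardly move. For the other values it was the spread between the results without each replicate. The spread between replicates was very small for the share of genes bound and for AT content, so small shifts count as moves there. With peaks of signal at or above the median, members numbered 375, the bound share of stand-alone genes minus that of all genes was −4.08 percentage points, the log2 signal difference from other promoter peaks −0.11, the AT difference −11.9 and the share in both replicates 98.4%. With neighbours of either strand kept 500 bp away the values were 373 members, −6.73 points, −0.10 and an AT difference of −11.1. The window from 500 bp upstream to 100 bp downstream gave −4.65 points, a median position of −211 bp and an AT difference of −10.8. Same-strand neighbours within 1000 bp gave −5.71 points and −10.4, and dropping summits near a stronger one gave an AT difference of −10.9. AT difference was −11.99 within 25 bp of the summit and −7.71 within 100 bp. Members found in both replicates were 75.9% within 50 bp and 99.3% within 200 bp. The cause of these moves was not tested.

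Leaving out each replicate in turn gave 695 to 747 members, a difference in bound share of −5.59 to −5.57 points, a log2 signal difference of −0.22 to −0.12, a median position of −305 to −282 bp and an AT difference of −10.05 to −10.03. No paired analysis was possible because there was 1 group. Tagged transgene, whole animals, unknown depth and no untagged control analysed here limit all values.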
